A study of Mus musculus with 18 samples.

Results

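The interferon receptor chains Ifnar1, Ifnar2, Ifngr1 and Ifngr2, the receptor-bound kinases Jak1 and Tyk2, the transcription factor Stat2, and the inhibitors Socs1 and Ptpn2 were examined in all 18 mouse RNA-seq libraries. These 9 genes were taken by name and not by a cutoff on a measured value, but with earlier results of these data known. All 9 were found among 55401 genes of an endothelial table and 22612 gene lines of a tumour cell table, and all 9 passed the filter on low values, a table-wide mean of 10 or more. The endothelial libraries held 4 groups of 3 from wild-type female C57BL/6 mice. Blood vessel endothelial cells (BECs) came from the mammary fat pad (BEC normal) or from EO771 primary tumours implanted there (BEC tumour). High endothelial cells (HECs), which line the lymph node venules where lymphocytes leave the blood, came from lymph nodes of tumour-free mice (HEC normal) or from nodes labelled as lymph node metastases (HEC tumour). Endothelial cells had been sorted as CD45- CD31+ cells, with the peripheral node addressin PNAd present on HECs and absent from BECs. HEC and BEC groups therefore differed in tissue as well as in cell type, and these cannot be told apart. BEC tumour and BEC normal also differed in tissue, and the study digested tumours and fat pads with different enzymes. Both HEC groups came from lymph nodes. A change with tumour in BECs, or its difference from that in HECs, therefore cannot be told apart from tissue and digestion. The other 6 libraries came from the EO771 line of mouse mammary tumour cells, which had received either vehicle or 12-HETE, a product of arachidonic acid made by the lipoxygenase ALOX12. EO771 is 1 line, and dose and time of 12-HETE stand in the study's methods rather than in the labels. The study describes the 3 libraries of a group as independent experiments, and whether animals were pooled for a library is not stated in the sources used here.

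Interferons are secreted proteins that alert cells to viruses and tumours. Type I interferons bind a receptor built from IFNAR1, which holds the kinase TYK2, and IFNAR2, which holds JAK1. These kinases phosphorylate STAT2, which joins IRF9 in a complex that binds the interferon-stimulated response element (ISRE) of target genes. Type II interferon binds IFNGR1 and IFNGR2, which work through JAK1 and JAK2 and act on gamma-activated sites (GAS). STAT2 and IRF9 are themselves interferon targets. SOCS1 blocks the kinases and is induced by the pathway it inhibits, while the phosphatase PTPN2 removes phosphate from JAK1. Endothelial cells and many tumour lines carry both receptors.

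Promoters of 8 of the 9 genes, from 250 bases before to 50 bases after the RefSeq start on GRCm38.p6, were searched on both strands for an ISRE core written GAAANNGAA and a GAS core written TTCNNNGAA. An ISRE core was found in Stat2 and Socs1 among the 8, and in 8.56% of 32851 promoters of the same length. A GAS core was found in Ifnar1 and Ifnar2, and in 8.3% of all promoters. Neither core was present in these windows of Ifngr1, Ifngr2, Jak1 and Tyk2. The 4 promoters with a match are printed 5′ to 3′ on the strand of the gene, because Stat2 carried the largest changes of the 9 genes and the others differ in which core they hold. Capitals mark the matched letters. Such a match is a description of the letters and not a mapped binding site.
Stat2 (chr10:128270248-128270497, plus strand, the 250 bases before the start, ISRE core on the opposite strand): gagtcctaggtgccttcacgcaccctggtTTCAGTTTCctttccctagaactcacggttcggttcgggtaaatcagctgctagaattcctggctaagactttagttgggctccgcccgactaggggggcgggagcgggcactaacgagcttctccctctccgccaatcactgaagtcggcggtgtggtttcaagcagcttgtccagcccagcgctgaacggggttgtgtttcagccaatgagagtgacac
Socs1 (chr16:10785537-10785786, minus strand, the 250 bases before the start, 2 overlapping ISRE cores): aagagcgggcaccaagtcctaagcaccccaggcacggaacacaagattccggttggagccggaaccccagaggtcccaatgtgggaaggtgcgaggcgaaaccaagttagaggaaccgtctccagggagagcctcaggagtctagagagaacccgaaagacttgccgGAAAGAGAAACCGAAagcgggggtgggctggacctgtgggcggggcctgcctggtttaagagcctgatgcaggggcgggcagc
Ifnar2 (chr16:91372553-91372672, plus strand, GAS core): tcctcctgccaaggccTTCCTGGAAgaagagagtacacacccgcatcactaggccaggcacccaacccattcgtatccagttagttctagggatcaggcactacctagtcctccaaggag
Ifnar1 (chr16:91485115-91485218, plus strand, GAS core across the start): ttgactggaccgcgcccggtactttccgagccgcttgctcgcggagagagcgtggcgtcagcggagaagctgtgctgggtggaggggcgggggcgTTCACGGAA

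The Stat2 match lay at bases -221 to -213 counted from the RefSeq start, and the 2 Socs1 matches lay at -83 to -75 and -77 to -69. The Ifnar2 match lay at -214 to -206, and that of Ifnar1 ran from -5 to 4, with no base numbered 0. Of the 22 interferon targets used below, 18 had a promoter in the RefSeq table, of which 11 held an ISRE core and 5 a GAS core. The receptor genes include 3 neighbours: Ifnar2, Ifnar1 and Ifngr2 lie on the plus strand within 192.8 kb (chr16:91372783-91565623), with Il10rb between Ifnar2 and Ifnar1. Exons of Ifnar2 share 315 bases with Gm21970, and those of Tyk2 share 554 bases with 1700084C06Rik on the opposite strand. Jak1 shares 4 exon bases with Raver2. Strand use in counting is not stated, so reads in these stretches cannot be assigned with certainty.

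Totals ran from 56.4 to 79.4 M per endothelial library and from 17.3 to 18.6 M per EO771 library. The endothelial values pile up in steps of 3.65 to 3.71, so 1 unit there is not 1 fragment. Endothelial markers were present in all 4 sorted groups, while of 6 high endothelial markers Glycam1 and Chst4 were at 0 in every BEC library and Chst2 was at 0 in every HEC library. In BECs Chst2 had normalised counts of 1284 to 1598 without and 111 to 154 with tumour. Madcam1 was also at 0 in HEC normal, against 14.1 to 27.4 in BEC normal. Gcnt1 was higher in BECs than in HECs without tumour (318 to 409 against 280 to 305) and with it (440 to 528 against 265 to 393). The 6 high endothelial markers summed to 975 to 1327 CPM (counts scaled to the library total) in HEC normal and 2221 to 3054 in HEC tumour. They summed to 24.9 to 27.8 in BEC normal and 9.12 to 9.75 in BEC tumour. The sums in HECs thus rest on Glycam1, Chst4 and Fut7. Single libraries stood apart for 2 of these markers. Chst4 had normalised counts of 19906, 4.07 and 20205 in the 3 HEC normal libraries, and Fut7 had 66478, 65523 and 14255 in the 3 HEC tumour libraries. Of the 9 genes, 3 passed the test in HECs with tumour when all libraries were used, 4 did so without HEC normal replicate 2 and 3 without HEC tumour replicate 3. The summed level of 12 leukocyte markers was 1516 to 2046 CPM in BEC tumour, where all 12 were above 0, against 109 to 131 in BEC normal, where Cd3e, Cd3g and C1qa were at 0. The summed level of 8 stromal markers went the other way in BECs, at 885 to 901 CPM without and 101 to 134 with tumour, and was 11.7 to 27.8 in HECs. The summed leukocyte level was 484 to 510 in HEC normal and 357 to 375 in HEC tumour. Of the 12 leukocyte markers, 10 were above 0 in some HEC normal library and 8 in some HEC tumour library. Cd3e and Cd3g were at 0 in both HEC groups. Ptprc, which encodes the sort marker CD45, had normalised counts of 12.2 to 29.6 in HEC normal and 0 to 4.62 in HEC tumour. In BECs Ptprc had 8.24 to 24.7 without and 401 to 855 with tumour. In these bulk libraries fewer cells of a type and less RNA per cell cannot be told apart.

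Differences were tested with DESeq2 (Wald test, two-sided, Benjamini-Hochberg over all genes tested). A gene passed the test at an adjusted p under 0.05 and was called when it also changed over 2-fold. Of the 9 genes, 3 were higher and 5 lower in HEC normal than in BEC normal, where 31.4% of all 18511 genes tested were higher and 31.9% lower. A pair (Ifnar1, Ifngr1) was called, where 32.2% of all genes were. In tumour-bearing mice, 2 were higher and 7 lower in HECs than in BECs (25.9% and 28.4% of all genes), and 2 were called (Socs1, Ifnar1; 21.9% of all genes). With tumour, 1 gene rose and 2 fell in HECs (16.9% and 18.5% of all genes), and 1 was called (Stat2; 7.8% of all genes). With tumour in BECs, 2 rose and 5 fell (26.5% and 27.2%), and none was called (23.3%). In EO771 cells given 12-HETE, 1 rose and 3 fell, where 22.7% of 11602 lines tested rose and 24.2% fell, and 1 was called (Stat2; 10.2% of all lines). With the replicate number as a block in the fit, 2 of the 9 genes passed the test there (Stat2, Tyk2). At most 2 of the 9 genes were called in any of these comparisons.

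**Figure D1:**
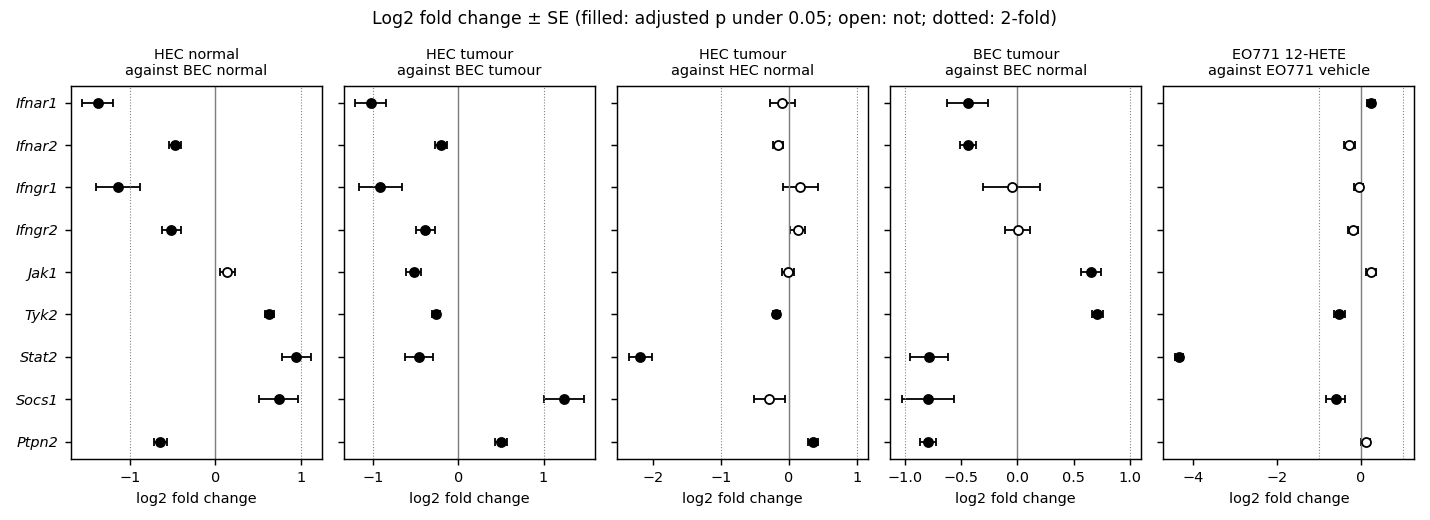
Log2 fold change of the 9 genes in 5 comparisons (x axis, log2 scale, separate for each panel), with error bars of 1 SE from the DESeq2 fit and 3 libraries a group. Filled points passed an adjusted p of 0.05, open points did not, and dotted lines mark a 2-fold change. Stat2 stands at -2.20 in HECs with tumour and at -4.34 in EO771 cells with 12-HETE, while the other 8 genes stay between -0.80 and 0.71 in the 3 panels for tumour and 12-HETE.

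Stat2, the STAT that serves type I and type III interferons, showed the widest range of the 9 genes. It had normalised counts of 14764, 15319 and 15213 in HEC normal and of 4426, 2578 and 2886 in HEC tumour. All 3 HEC tumour libraries lay far below all HEC normal libraries, a 4.58-fold fall (log2 -2.20 ± 0.17 SE, adjusted p 3.11e-36), with log2 values from -2.47 to -2.05 as single libraries were left out. In BECs the counts were 7209, 7414 and 8904 without tumour and 4523, 4615 and 4503 with it, which is a 1.72-fold fall (log2 -0.79 ± 0.17, adjusted p 1.26e-05) with no overlap. The fall in HECs exceeded that in BECs by 1.41 ± 0.24 on the log2 scale, tested as an interaction (log2 -1.41, adjusted p 2.69e-08). Of the 9 genes 2 had a positive and 3 a negative interaction past the test, and 2 were called (Stat2, Ptpn2), where 22.9% of all genes had a positive one, 23.8% a negative one and 23.3% a called one. Normal HECs held 1.93 times the Stat2 of normal BECs (log2 0.95 ± 0.17, adjusted p 7.73e-08). With tumour this order turned, and HECs held 1.38-fold less than BECs (log2 -0.46 ± 0.17, adjusted p 0.0133), but that difference missed the threshold without HEC tumour replicate 2 (adjusted p 0.0965) or replicate 3 (adjusted p 0.0861).

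**Figure D2:**
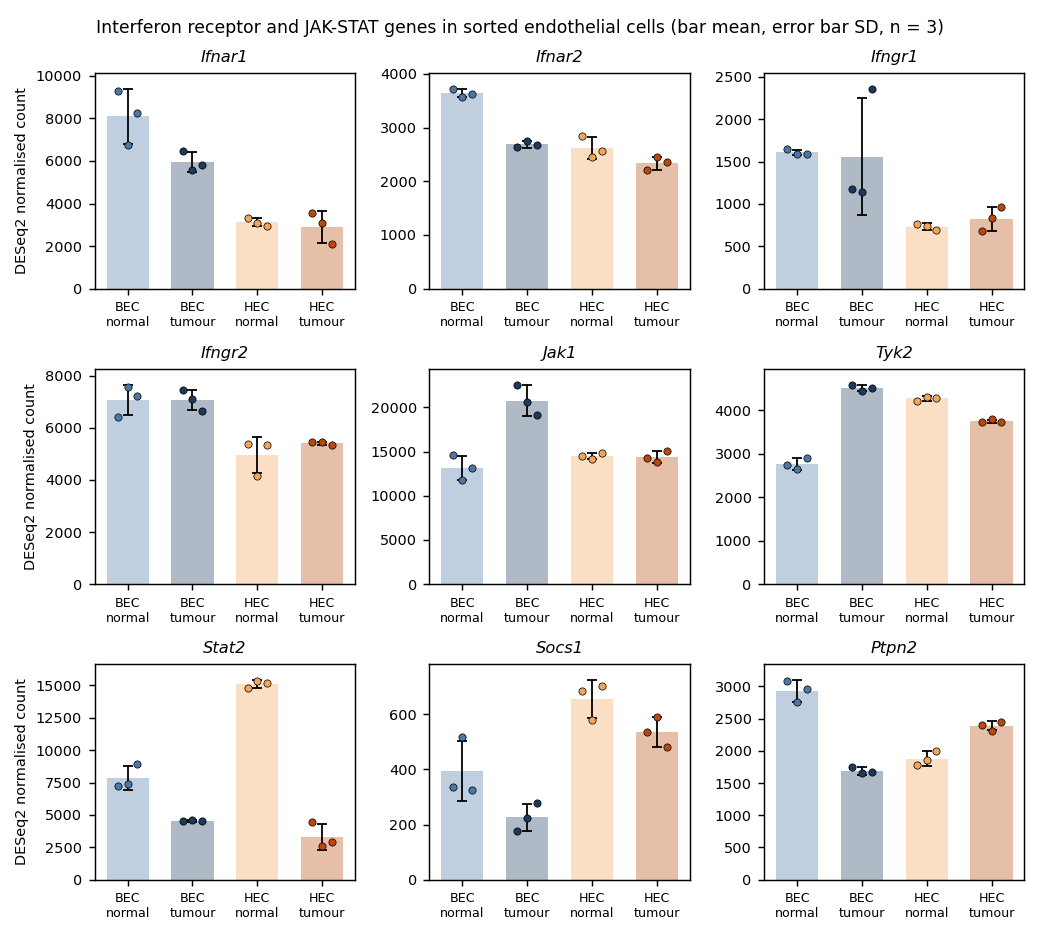
DESeq2 normalised counts (y axis, linear, from 0, scaled to each gene) of the 9 genes in the 4 sorted endothelial groups (x axis). Points are single libraries, bars the mean and error bars the SD of 3 libraries. Stat2 is at 14764 to 15319 in HEC normal and at 2578 to 4615 in the 2 tumour groups, Ifnar1 is lower in both HEC groups than in both BEC groups, and 1 BEC tumour library of Ifngr1 lies apart at 2355.

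In EO771 cells Stat2 had normalised counts of 8723, 8186 and 9244 with vehicle and 395, 443 and 450 with 12-HETE. Every 12-HETE library was at a small share of every vehicle library, a 20.3-fold fall (log2 -4.34 ± 0.10, adjusted p too small to be represented). The deposited counts behind the 12-HETE values were 385 to 457, so counting error is small beside the change. Cell type markers moved as well. The summed level of 8 stromal markers was 390 to 614 CPM with vehicle and 998 to 1037 with 12-HETE. Not all 8 followed this sum: Col1a2 and Col3a1 were at 0 in every 12-HETE library, while no stromal marker was at 0 in every vehicle library. The summed level of 6 epithelial markers was 3091 to 4005 with vehicle and 2069 to 2121 with 12-HETE. Their part in the changes of the 9 genes was not tested.

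**Figure D3:**
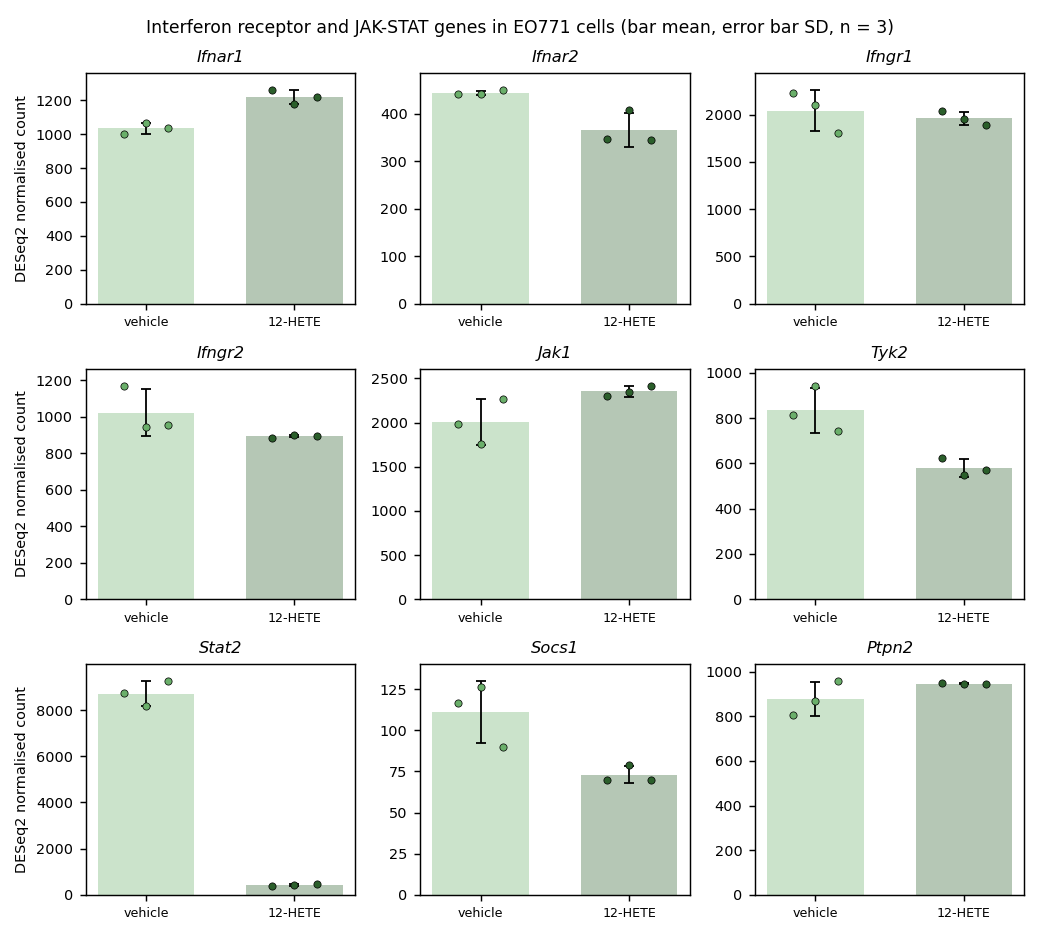
DESeq2 normalised counts (y axis, linear, from 0, scaled to each gene) of the 9 genes in EO771 cells given vehicle or 12-HETE (x axis). Points are single libraries, bars the mean and error bars the SD of 3 libraries. Stat2 is at 8186 to 9244 with vehicle and at 395 to 450 with 12-HETE, whereas the other 8 genes differ by at most 1.52-fold.

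Among the type I receptor chains, Ifnar1, the chain that holds TYK2, had normalised counts of 9289, 6738 and 8251 in BEC normal and of 3338, 3083 and 2944 in HEC normal. The groups did not overlap, and HECs held 2.59-fold less (log2 -1.37 ± 0.18, adjusted p 1.05e-13). With tumour the counts were 6468, 5572 and 5825 in BECs and 3556, 3107 and 2081 in HECs, a 2.04-fold difference in the same direction (log2 -1.03 ± 0.18, adjusted p 5.04e-08) that stayed above 2-fold in 10 of 12 alternatives. Ifnar1 was lower in tumour BECs than in normal BECs (log2 -0.44 ± 0.18, adjusted p 0.0273), which missed the threshold under edgeR (adjusted p 0.0728) and without any 1 of 4 BEC libraries (adjusted p up to 0.136). In HECs the change with tumour was -0.10 ± 0.18 (adjusted p 0.731). HEC tumour replicate 3 lay lowest in its group, and without it the change in HECs was 0.09 and the interaction, 0.34 in the full fit (adjusted p 0.276), reached 0.53 (adjusted p 0.0144).

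Ifnar2, the chain that holds JAK1, was also lower in HECs than in BECs, with and without tumour. Its normalised counts were 3716, 3576 and 3629 in BEC normal, 2635, 2757 and 2676 in BEC tumour, 2843, 2453 and 2572 in HEC normal, and 2206, 2445 and 2355 in HEC tumour. BEC normal lay above the other 3 groups without overlap. Ifnar2 was 1.39-fold lower in normal HECs than in normal BECs (log2 -0.47 ± 0.07, adjusted p 2.26e-10), and it fell 1.35-fold in BECs with tumour (log2 -0.44 ± 0.07, adjusted p 6.69e-09). In tumour-bearing mice it was 1.15-fold lower in HECs (log2 -0.20 ± 0.07, adjusted p 0.0114), which missed the threshold without BEC tumour replicate 2 (adjusted p 0.0576) or HEC tumour replicate 1 (adjusted p 0.0800). Its change in HECs missed the threshold (log2 -0.17 ± 0.07, adjusted p 0.0612) but passed it with TMM factors (adjusted p 0.0131), without HEC normal replicate 2 (adjusted p 0.0194) and without HEC tumour replicate 2 (adjusted p 0.0480).

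In EO771 cells the type I receptor chains moved little. Ifnar1 had normalised counts of 1002, 1064 and 1035 with vehicle and of 1258, 1176 and 1219 with 12-HETE, so that the groups did not overlap, and it was 1.18-fold higher (log2 0.24 ± 0.09, adjusted p 0.0225). With the replicate number as a block the adjusted p of Ifnar1 was 0.13, and it was also over 0.05 without any 1 of 4 libraries. Ifnar2 had counts of 441, 441 and 449 with vehicle and of 346, 407 and 344 with 12-HETE, a difference of -0.28 ± 0.13 that missed the threshold (adjusted p 0.0604).

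Of the type II receptor chains, Ifngr1, which binds interferon gamma, had the second called difference between normal HECs and BECs. Its normalised counts were 1646, 1593 and 1591 in BEC normal and 763, 744 and 688 in HEC normal, a 2.2-fold lower level in HECs (log2 -1.14 ± 0.25, adjusted p 1.95e-05). In BEC tumour, replicates 1 and 2 had 1174 and 1140 and replicate 3 had 2355, while HEC tumour libraries had 678, 829 and 961. HECs with tumour held 1.89-fold less than BECs with tumour (log2 -0.92 ± 0.25, adjusted p 0.000799), and this was -0.50 without BEC tumour replicate 3. The change with tumour in BECs was -0.05 ± 0.25 with all libraries (adjusted p 0.894) and -0.47 without that library (adjusted p 0.00284). Likewise the interaction went from 0.22 (adjusted p 0.656) to 0.64 (adjusted p 0.00325) without it.

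Ifngr2, the signalling partner of IFNGR1, did not pass the test with tumour in either cell type. Its normalised counts were 6422, 7574 and 7203 in BEC normal and 7441, 7112 and 6659 in BEC tumour, with groups that overlapped (log2 0.0011 ± 0.11, 95% interval -0.21 to 0.21). In HECs they were 5374, 4146 and 5325 without and 5438, 5444 and 5334 with tumour (log2 0.13 ± 0.11, 95% interval -0.08 to 0.34). Normal HECs held 1.43-fold less Ifngr2 than normal BECs (log2 -0.51 ± 0.11, adjusted p 5.43e-06) and tumour HECs 1.31-fold less than tumour BECs (log2 -0.39 ± 0.11, adjusted p 0.000905). In EO771 cells neither type II chain passed the test, with -0.06 ± 0.11 for Ifngr1 (adjusted p 0.685) and -0.20 ± 0.12 for Ifngr2 (adjusted p 0.175). Ifngr2 passed it without vehicle replicate 2 (adjusted p 0.0445). Across the 4 receptor chains, all were lower in HECs than in BECs, with and without tumour, while in BECs with tumour Ifnar1 and Ifnar2 were lower in the fit of all libraries.

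The kinases parted from the receptors in BECs. Jak1, which serves both receptors, had normalised counts of 14570, 11813 and 13130 in BEC normal and of 22556, 20557 and 19101 in BEC tumour. The groups did not overlap, and Jak1 rose 1.57-fold (log2 0.65 ± 0.09, adjusted p 1.39e-12). In HECs it had 14535, 14163 and 14806 without tumour and 14245, 13826 and 15063 with it (log2 -0.01 ± 0.09, 95% interval -0.19 to 0.16). The change in HECs less that in BECs was -0.67 ± 0.13 (adjusted p 6.73e-07). Normal HECs and BECs did not differ past the threshold (log2 0.14 ± 0.09, adjusted p 0.166), though they did with TMM factors (adjusted p 0.0451) and without BEC normal replicate 1 (adjusted p 0.0202), and with tumour HECs held 1.44-fold less (log2 -0.53 ± 0.09, adjusted p 1.57e-08).

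Tyk2, the kinase of IFNAR1, had normalised counts of 2727, 2637 and 2900 in BEC normal and of 4579, 4438 and 4513 in BEC tumour, a 1.64-fold rise (log2 0.71 ± 0.05, adjusted p 1.02e-45). In HECs it moved the other way, from 4205, 4304 and 4287 to 3729, 3787 and 3726, a 1.14-fold fall with groups that did not overlap (log2 -0.19 ± 0.05, adjusted p 0.000718). Its interaction was -0.90 ± 0.07 (adjusted p 1.2e-36). The order of the cell types turned: Tyk2 was 1.55-fold higher in normal HECs than in normal BECs (log2 0.63 ± 0.05, adjusted p 5.26e-36) and 1.2-fold lower in tumour HECs than in tumour BECs (log2 -0.27 ± 0.05, adjusted p 1.88e-07). The higher leukocyte and lower stromal marker levels in BEC tumour libraries moved with the rise of Jak1 and Tyk2 there, and their part in it was not tested. The same holds for the falls of Ifnar1, Ifnar2, Stat2, Socs1 and Ptpn2 in BECs.

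In EO771 cells Tyk2 had normalised counts of 816, 943 and 743 with vehicle and of 622, 548 and 571 with 12-HETE. All 12-HETE libraries lay below all vehicle libraries, a 1.44-fold fall (log2 -0.52 ± 0.13, adjusted p 0.00032) that also passed the test with the replicate number as a block (adjusted p 0.00274). Jak1 had 1987, 1752 and 2272 with vehicle and 2298, 2344 and 2415 with 12-HETE (log2 0.23 ± 0.12, adjusted p 0.0946). It passed the test without vehicle replicate 3, the highest of its group (log2 0.33, adjusted p 0.00167).

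The inhibitors differed from each other. Socs1, which the pathway induces and which blocks its kinases, had normalised counts of 334, 519 and 326 in BEC normal, 178, 222 and 277 in BEC tumour, 685, 578 and 703 in HEC normal, and 534, 589 and 479 in HEC tumour. Both HEC groups lay above both BEC groups apart from an overlap of HEC tumour with BEC normal. Socs1 was 1.67-fold higher in HECs than in BECs without tumour (log2 0.74 ± 0.23, adjusted p 0.00251) and 2.36-fold higher with tumour (log2 1.24 ± 0.23, adjusted p 3.92e-07). It fell 1.74-fold in BECs with tumour (log2 -0.80 ± 0.23, adjusted p 0.00163), whereas the change in HECs was -0.29 ± 0.23 (adjusted p 0.34), and the interaction missed the threshold (0.50 ± 0.33, adjusted p 0.206).

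Ptpn2, the phosphatase that acts on JAK1, rose in one cell type and fell in the other. Its normalised counts fell in BECs from 3075, 2750 and 2962 to 1756, 1648 and 1665 with tumour, by 1.73-fold (log2 -0.79 ± 0.07, adjusted p 5.45e-26). In HECs they rose from 1774, 1856 and 1997 to 2407, 2313 and 2447, by 1.27-fold (log2 0.35 ± 0.07, adjusted p 1.96e-05). Neither pair of groups overlapped, and the interaction was 1.14 ± 0.10 (adjusted p 1.78e-26). Ptpn2 was 1.56-fold lower in HECs than in BECs without tumour (log2 -0.64 ± 0.07, adjusted p 1.54e-17) and 1.41-fold higher with tumour (log2 0.50 ± 0.07, adjusted p 1.01e-10).

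In EO771 cells Socs1 was the lowest of the 9 genes, with deposited counts of 68 to 132. Its normalised counts were 117, 126 and 90.1 with vehicle and 69.8, 78.8 and 69.9 with 12-HETE. The groups did not overlap, and the difference of 1.52-fold passed the test (log2 -0.61 ± 0.23, adjusted p 0.0215), but not with the replicate number as a block (adjusted p 0.113). It also missed the threshold without vehicle replicate 1 or 2 or any 1 of the 12-HETE libraries (adjusted p 0.0679 to 0.124). Ptpn2 had 806, 869 and 957 with vehicle and 948, 947 and 944 with 12-HETE (log2 0.11, 95% interval -0.10 to 0.32).

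Levels between genes were compared per kb of exon, on a TPM-like scale with the same sum in every library. In HEC normal Stat2 was the highest of the 9 genes at 93.6 ± 1.2 (SD, n = 3), followed by Jak1 at 73.7 ± 2.1 and Ifngr2 at 48.3 ± 7.1. In HEC tumour Jak1 led at 80.1 ± 4.2, and Stat2, at 22.4 ± 6.6, overlapped with Ifnar2 at 28.2 ± 1.6 and Tyk2 at 21.97 ± 0.23. Jak1 also led in BEC tumour at 115 ± 12, whereas in BEC normal Ifngr2, at 70.4 ± 4.1, and Jak1, at 68.6 ± 8.9, overlapped. In EO771 cells with vehicle Stat2 led at 278 ± 27, above Ifngr1 at 135 ± 10, and with 12-HETE Stat2 was the second lowest at 13.4 ± 0.8. Socs1 came last in all 6 groups, from 3.09 ± 0.62 in BEC tumour to 8.28 ± 0.91 in HEC normal, where its libraries overlapped with Ifngr1. Ifngr1 stood second or first in EO771 cells and seventh or eighth by its mean in the endothelial groups. In BEC tumour its libraries ran from 16.1 to 32.3 and overlapped with those of Tyk2 and Ptpn2 beside it in the order, and reached the means of Stat2 (30.6) and Ifnar2 (32.3).

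The rest of the pathway was read from a list of 26 other JAK, STAT, SOCS, PIAS and phosphatase genes, Irf9, Usp18, Il10rb and Ifnlr1. In HECs with tumour, 6 rose and 13 fell, where 16.9% and 18.5% of all genes did. The median log2 change was -0.39 against 0.02 over all genes. Those called included Usp18, which removes ISG15 and blocks IFNAR2 (log2 -2.39 ± 0.09), and Stat3, which serves the interleukin-6 family (-1.25 ± 0.10). In BECs with tumour, 3 rose and 13 fell (26.5% and 27.2% of all genes), with a median of -0.33. Among those called, Usp18 (-2.37 ± 0.09) and Socs3, an inhibitor of interleukin-6 signalling (-1.10 ± 0.11), fell, while Ptpn6, a phosphatase abundant in leukocytes, rose (1.10 ± 0.22). The interaction was -0.02 ± 0.13 for Usp18 (adjusted p 0.92). Exons of Usp18 share 124 bases with Gm44148 on the opposite strand.

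Between normal HECs and BECs, 5 of the 26 genes were higher and 15 lower in HECs (31.4% and 31.9% of all genes). Il10rb, the shared chain of the interleukin-10 and interferon lambda receptors (log2 -1.06 ± 0.09), and Ptpn6 (-1.99 ± 0.23) were lower, and the SOCS family member Socs4 was higher (1.25 ± 0.17). In tumour-bearing mice 5 were higher and 12 lower (25.9% and 28.4% of all genes). Those called included Stat3 (-1.31 ± 0.10) and Ptpn6 (-2.53 ± 0.22). For the difference between the tumour changes, 7 of the 26 were positive and 8 negative, where 22.9% and 23.8% of all genes were, and 1 was called, where 23.3% of all genes were. That gene, Socs6, a SOCS family member, had an interaction of 1.55 ± 0.62 (adjusted p 0.0284). Its replicate 2 was the lowest library in 3 of the 4 groups, with normalised counts of 1739, 667 and 1912 in HEC normal, 2517, 873 and 2473 in HEC tumour, 1354, 557 and 1060 in BEC tumour, and 2502, 1986 and 1919 in BEC normal. The interaction of Socs6 missed the threshold under edgeR (adjusted p 0.0958), with TMM factors (0.0831) and with no filter on low counts (0.0883). It also missed it without any 1 of 8 libraries (adjusted p 0.0729 to 0.149). These were each BEC normal library, BEC tumour replicate 2 or 3, HEC normal replicate 2, and HEC tumour replicate 1 or 3. It stayed called without any 1 of the remaining libraries (adjusted p 0.00218 to 0.0278). The same held with values divided by their step (adjusted p 0.0313). With the replicate number as a block it was 1.68 (adjusted p 7.73e-05).

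In EO771 cells given 12-HETE, 4 of 25 of these genes tested were higher and 12 lower (22.7% and 24.2% of all lines). With the replicate number as a block 3 were higher and 9 lower. Irf9, which binds DNA in a complex with STAT2, fell with it and went from 2366, 2523 and 2394 to 212, 211 and 216 normalised counts (log2 -3.51 ± 0.10). Usp18 fell from 12398, 13639 and 11640 to 487, 489 and 441 (log2 -4.73 ± 0.11). Irf9, Usp18 and Stat2 showed no overlap between groups.

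Genes that interferons induce were followed with a list of 22, drawn up with earlier results of these data known. In EO771 cells all 22 were lower with 12-HETE (24.2% of all lines), with a median log2 change of -5.75 and a smallest change of -1.44. In HECs with tumour 21 were lower and 0 higher (18.5% and 16.9% of all genes), with a median of -1.34. In BECs with tumour 14 were lower and 4 higher (27.2% and 26.5%), with a median of -1.21. The tumour change was more negative in HECs than in BECs for 12 of the 22 and more positive for 3 (23.8% and 22.9%). Between normal HECs and BECs 13 were higher and 4 lower in HECs (31.4% and 31.9%). With tumour 6 were higher and 11 lower in HECs (25.9% and 28.4%). Stat2 lay within the range of these genes in all 3 comparisons with tumour or 12-HETE. That range ran from -3.24 to -0.27 in HECs, from -2.63 to 2.24 in BECs and from -12.8 to -1.44 in EO771 cells. The other 8 genes lay between -0.29 and 0.35 in HECs, where Socs1 was also within the range. In BECs they lay between -0.80 and 0.71, so all 8 were within it as well. In EO771 cells they lay between -0.61 and 0.24, outside the range.

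**Figure D4:**
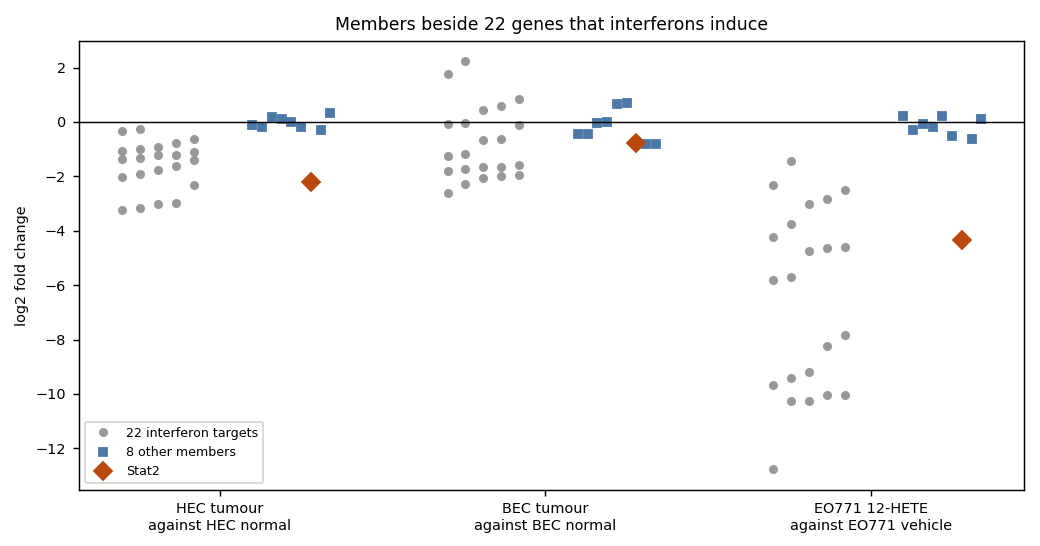
Log2 fold change (y axis) with tumour in HECs, with tumour in BECs and with 12-HETE in EO771 cells (x axis) of 22 interferon targets (grey circles), the 8 genes other than Stat2 (blue squares) and Stat2 (orange diamonds), 3 libraries a group. All 22 targets lie below 0 in HECs and in EO771 cells, Stat2 lies among them, and the 8 other genes stay within 0.80 of 0.

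Genes whose pattern was most like that of Stat2 were named by the correlation of log2 normalised counts, as a description across libraries that share groups and depth. Over the 12 endothelial libraries, Stradb (Pearson r = 0.990), Layn (r = 0.971) and Ube2h (r = 0.955) came first among 13289 genes. Over the 6 EO771 libraries, Gmeb2, Mndal and Rsad2 came first among 9634 lines, each with r of 1.00, where the single step between vehicle and 12-HETE sets the value.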

How the data were processed

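RNA-seq of 12 sorted endothelial libraries and 6 EO771 libraries was used, 3 for each of 6 groups taken from the labels. The authors used STAR for alignment to GRCm38 and featureCounts for counting. They deposited whole numbers in both tables: raw counts for EO771, and for the endothelial cells values in steps of about 3.68, treated here as estimated counts. Strand use and duplicate removal are not stated for these counts, and the library kit is named differently in labels and methods. Genes with a mean of at least 10 were fitted with DESeq2 1.42.0 under R 4.3.3 (group as the only term, 1 fit for each table, 12 and 6 libraries), as the study's methods describe. Size factors were medians of ratios, error bars are SE from the fit and 95% intervals use 1.96 SE. All gene values are from these fits unless another is named. The alternatives were edgeR 4.0.16, TMM factors, no filter, endothelial values divided by their step, 2 groups only, each library left out, and a replicate block.

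The scripts were tested on simulated data. Exon lengths and positions came from the GENCODE annotation of GRCm38, and promoters from RefSeq. The 9 genes and the lists of other genes were chosen with earlier results of these data known. Named genes were the 9, up to 3 higher and 3 lower of the other pathway genes by Wald statistic among those called, and interferon ligands with a mean over 10 over a table. Some items are not reported here. Replicate numbers are shared by the labels. In EO771 cells the deviations of libraries with the same number correlated at 0.111 to 0.328 over 9635 genes, so numbers were taken to pair samples. The main EO771 fit leaves this pairing out, and blocked values stand beside results they change. No 2 libraries agreed within sampling noise. For pairs within a group, the spread relative to sampling noise (chi-square per degree of freedom) was 2.39 to 2.72 with 12-HETE and 16.5 to 46.3 with vehicle. Endothelial pairs ran from 13.6 to 27.5. The EO771 groups thus differed in spread, while the fit shares an estimate of it between them.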

Additional observations from a re-analysis of the deposited data

Results flagged for a closer look

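By the interaction term of the DESeq2 fit, 5 of the 9 genes passed the test for a different change with tumour in the 2 cell types (2 positive, 3 negative), where 22.9% of all genes were positive and 23.8% negative. The change in BECs sets tumour tissue against fat pad, and that in HECs sets lymph node against lymph node. Cell type, tissue and digestion cannot be told apart in this term. Stat2 fell more in HECs, with an interaction of -1.41 (adjusted p 2.69e-08), lower in 3 of 3 tumour libraries in both cell types. Tyk2 had an interaction of -0.90 (adjusted p 1.2e-36) and changed in opposite directions, lower in HECs and higher in BECs. Jak1 had an interaction of -0.67 (adjusted p 6.73e-07), with a rise in BECs and a change of -0.01 in HECs. Ptpn2 had an interaction of 1.14 (adjusted p 1.78e-26), with a rise in HECs and a fall in BECs. Ifnar2 had an interaction of 0.27 (adjusted p 0.0204), which missed the threshold under edgeR (adjusted p 0.104) and without any 1 of 5 libraries (adjusted p 0.0567 to 0.0758).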

How the results depend on the processing

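Of 36 changes past the test, 30 stayed past it in all of the 10 to 17 alternatives tried for them, and 7 of 8 called changes stayed called, the exception being Ifnar1 in tumour HECs against tumour BECs. The count of genes past the test in EO771 cells was 4, fell to 2 with the replicate block, and ran from 2 to 5 as single libraries were left out (2 without vehicle replicate 1 or any 1 of the 12-HETE libraries). Signs reversed for 10 values near 0, none of them past the test in the full fit or after reversal. For Ifngr2 in BECs with tumour the value was -0.000181 with the replicate block and -0.067 to 0.045 as libraries were left out. For Ifngr1 in BECs it ran from -0.47 to 0.13, for Jak1 in HECs from -0.049 to 0.014, for Ifnar1 in HECs from -0.27 to 0.0923, and for Ifngr1 in EO771 cells from -0.14 to 0.0043. In endothelial comparisons, same-numbered libraries correlated at -0.0147 to 0.126. Every library correlated best with its own number in HECs against BECs, 5 of 6 did in HECs and 3 of 6 in BECs with tumour. In HECs against BECs the same-number correlations were small, at 0.0301 to 0.0692, and those of other numbers reached at most 0.0023. Deviations from a group mean cancel within the group, so positive same-number values push the others down. The low values of other numbers therefore add no separate evidence of pairing. What equal numbers share is not stated in the labels. The block changed no count of the 9 genes past the test in the endothelial comparisons. With 3 libraries a group, small changes such as those of Ifnar1 and Socs1 in EO771 cells are at the limit of the design.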

Other observations

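The 15 interferon ligand genes of the list were almost silent. In the endothelial table Ifnb1, the type I interferon made first after infection, was the ligand with a mean over 10 across the 12 libraries and so the one tested, and it did not pass the test in any comparison. Its normalised counts were 51.1, 34.1 and 11.2 in BEC normal and 7.42, 11.8 and 14.8 in BEC tumour. In HECs they were 18.3, 15.3 and 10.5 without tumour and 0, 7.89 and 0 with it. Named after their values were seen, 3 other ligands had a mean over 10 in 1 endothelial group. Ifna4, a type I interferon, had 38.8, 9.41 and 32.5 in BEC normal and 3.71, 0 and 6.10 in BEC tumour, and was at 0 in all HEC normal libraries. Ifne had 14.99, 9.41 and 14.2 in BEC normal and was at 0 in BEC tumour, and Ifnz had 10.1, 10.2 and 15.3 in HEC normal. In EO771 cells no ligand reached a mean of 10 over the 6 libraries. Also named after their values were seen, Ifnb1 had 7.92, 13.4 and 15.4 with vehicle and 0, 2.96 and 1.97 with 12-HETE, and the lambda interferon Ifnl3 had 8.91, 19.1 and 16.4 with vehicle and was at 0 in the 3 libraries with 12-HETE.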
